A study of Mus musculus with 8 samples.

Results

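The genes of nitric oxide synthesis and arginine supply described here are 10: the 3 nitric oxide synthases Nos1, Nos2 and Nos3, the arginine-recycling enzymes Ass1 and Asl, the arginine transporter Slc7a1, the arginase Arg2, the dimethylarginine hydrolases Ddah1 and Ddah2, and the cGMP phosphodiesterase Pde5a. They were taken by gene symbol from 20863 named genes, and 32 of 31465 named spots read them. RNA from whole lung was hybridised to single-colour arrays, 1 array per mouse, from 4 transgenic mice that over-express Fra-2 (Fra-2 TG) and 4 wild-type mice. All 8 mice were on the C57BL/6 background and 8 weeks old. The labels do not name the promoter or cell type that drives the transgene. Values are log2 normalised intensities, differences are transgenic minus wild type, and the brightest spot stands for a gene. Differences were tested with limma, adjusted over all genes by the Benjamini-Hochberg method with a threshold of 0.05.

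Nitric oxide synthases convert arginine and oxygen to nitric oxide and citrulline. Citrulline is turned back into arginine by argininosuccinate synthase (Ass1) and argininosuccinate lyase (Asl), while arginases draw arginine off to ornithine and methylated arginines block the synthases until the Ddah enzymes break them down. In the lung, nitric oxide made by endothelium diffuses to vascular smooth muscle, raises cGMP there and relaxes the vessel, and Pde5a ends that signal.

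Each array correlated with the others of its group at 0.971 to 0.975 in transgenic mice and 0.966 to 0.973 in wild-type mice, and the mice numbered 4 had the lowest value in both groups. The lung epithelial markers (8 genes, among them Foxj1, Sftpb and Ager) lay above the median of all spots, 4.74, on every array. The brighter of the 2 spots of Fosl2, which encodes Fra-2, was not higher in transgenic lung (difference -0.75). The dimmer Fosl2 spot was higher, at 6.35, 6.98, 6.68 and 7.85 in transgenic mice 1 to 4 against 3.44, 4.41, 4.65 and 5.58 in wild-type mice 1 to 4. The difference of the dimmer spot, 2.45, did not pass (limma adjusted p = 0.153). In wild-type mice 1 to 3 that spot lay below the median of all spots. Which parts of the transcript these spots read is not known here.

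Of the 10 genes, Ass1 rose in transgenic lung and was the only one past the threshold. Over all genes 45 passed, a share of 0.216%, and 26 of them (0.125% of all genes) were higher. Nos3 was also higher in all 4 transgenic mice than in any wild-type mouse, without passing the test. These 2 of the 10 genes were higher with no overlap between the groups, as were 3.99% of all genes. The same 2 had an unadjusted limma p under 0.05, as did 9.15% of all genes (5.33% higher). The median difference of the 10 genes was 0.23 and that of all genes 0.01, and 7 of the 10 differences were positive, as were 52.4% over all genes.

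**Figure D1:**
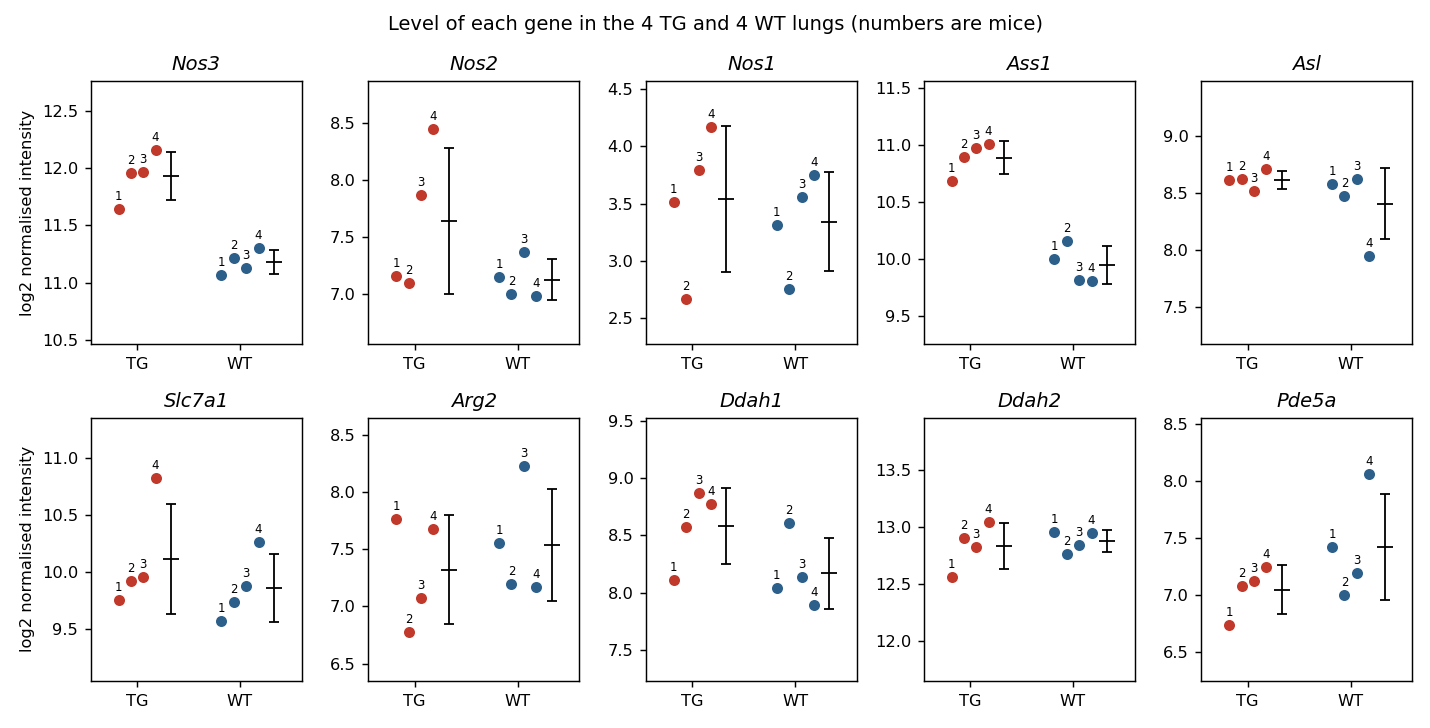
Log2 normalised intensity of the 10 genes in each mouse, transgenic (TG, red) left of wild type (WT, blue), with mouse numbers above the points and the mean ± SD (n = 4) as bars. Every panel spans the same log2 range. In Nos3 and Ass1 all 4 transgenic points lie above all 4 wild-type points, and in the other 8 genes the groups overlap.

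Ass1, argininosuccinate synthase, is the rate-limiting enzyme of arginine recycling from citrulline. Its brighter spot stood at 10.68, 10.89, 10.97 and 11.01 in transgenic mice 1 to 4, against 10.003, 10.16, 9.82 and 9.81 in wild-type mice 1 to 4. The lowest transgenic value lay above the highest wild-type value. The group means were 10.89 ± 0.15 in transgenic and 9.95 ± 0.17 in wild-type lung (SD, n = 4 each), a 1.92-fold rise (log2 difference 0.94, SE 0.13, 95% interval 0.63 to 1.25, limma adjusted p = 0.0467). The dimmer spot read 9.70, 9.79, 9.86 and 9.94 in transgenic mice against 8.80, 9.15, 8.69 and 8.73 in wild-type mice, a log2 difference of 0.98. So the spots gave nearly the same size of change, again without overlap. Of 4642 genes read by exactly 2 spots, 27 were higher on both without overlap, a share of 0.582%. In whole lung, more cells of a type and more RNA per cell cannot be told apart, for Ass1 as for the other genes.

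Ass1 ranked 45th of 20863 genes by p, the last gene past the threshold. The call was lost with any 1 mouse left out (limma adjusted p from 0.0798 to 0.184) while the difference stayed between 0.89 and 1.01, and with p-values adjusted over all named spots the brighter spot had 0.0558 and the dimmer spot 0.0501, where 0.178% of spots passed.

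The promoter window of Ass1 in RefSeq (GRCm38.p6), chr2:31470020-31470319 on the + strand, is shown because Ass1 was the gene that passed. It runs from 250 bases before the gene's start to 50 bases after it. That of Slc7a1, chr5:148399855-148400154 on the - strand, is shown for the AP-1 motif, the DNA word bound by Fra-2 and its partners. Capitals mark matches, on either strand, to the AP-1 motif TGANTCA, the CRE motif TGACGTCA, the GC box GGGCGG and the E-box CACGTG.
Ass1: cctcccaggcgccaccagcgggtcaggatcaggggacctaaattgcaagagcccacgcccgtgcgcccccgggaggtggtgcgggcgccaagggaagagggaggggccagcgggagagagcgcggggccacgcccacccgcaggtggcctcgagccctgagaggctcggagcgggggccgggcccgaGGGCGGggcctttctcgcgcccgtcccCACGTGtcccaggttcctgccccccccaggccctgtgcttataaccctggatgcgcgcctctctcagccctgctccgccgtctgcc
Slc7a1: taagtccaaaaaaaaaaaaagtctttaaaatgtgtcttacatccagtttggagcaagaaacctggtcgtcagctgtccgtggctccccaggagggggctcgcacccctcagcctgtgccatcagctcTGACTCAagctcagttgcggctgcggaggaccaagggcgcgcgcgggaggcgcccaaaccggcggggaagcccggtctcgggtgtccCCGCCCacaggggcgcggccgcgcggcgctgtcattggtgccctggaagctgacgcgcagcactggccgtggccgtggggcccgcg
Windows were at hand for 6 of the 10 genes (Ass1, Slc7a1, Ddah1, Ddah2, Nos1 and Pde5a), 7 windows in all. The Ass1 window held 1 GC box and 1 E-box, and its letters were 74.0% G or C. The AP-1 motif was found in 1 of the 6 genes, Slc7a1, as TGACTCA at position -123 relative to the gene's start. It lay in the printed window only, and the other Slc7a1 window held none of the searched motifs. Of 32851 windows of 300 bases, 7.81% held the AP-1 motif. GC boxes were found in 4 of the 6 genes (Ass1, Slc7a1, Pde5a and Ddah2) and in 35.7% of all windows, the E-box in Ass1 and in 7.15%, and the CRE motif in none of the 6 and in 1.79%. The searched motifs did not overlap each other in the printed windows.

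Asl, argininosuccinate lyase, does the next step after Ass1. It stood at 8.61, 8.62, 8.51 and 8.71 in transgenic mice 1 to 4, against 8.58, 8.47, 8.63 and 7.95 in wild-type mice 1 to 4. The groups overlapped, and wild-type mouse 4 was the lowest. The difference was 0.21 (SE 0.17, 95% interval -0.17 to 0.59, limma adjusted p = 0.744), and 0.057 without wild-type mouse 4. The log2 ratio of Ass1 to Asl within each array averaged 2.27 ± 0.16 in transgenic and 1.54 ± 0.29 in wild-type lung (SD, n = 4 each). Ratios of spots carry the brightness of the probes, so only their difference between groups, 0.73, is read. Each transgenic ratio exceeded each wild-type ratio (two-sided exact permutation p = 0.0286, which 4 against 4 mice cannot go below, and 0.0715 adjusted over the 5 ratios tested).

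Nos3, the endothelial nitric oxide synthase, was read by 11 spots. Its brightest spot stood at 11.65, 11.96, 11.97 and 12.16 in transgenic mice 1 to 4, against 11.06, 11.22, 11.12 and 11.30 in wild-type mice 1 to 4. The spread within either group was smaller than the gap between the group means, 11.93 ± 0.21 in transgenic and 11.18 ± 0.10 in wild-type lung (SD, n = 4 each). The fold was 1.69 (log2 difference 0.76, SE 0.14, 95% interval 0.44 to 1.08), which ranked 93rd by p and did not pass over all genes (limma adjusted p = 0.126; exact permutation p = 0.0286, two-sided).

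The other 10 Nos3 spots were dimmer, between 9.16 and 10.14 in transgenic and between 8.37 and 9.30 in wild-type mice. On each of the 11 spots the lowest transgenic value exceeded the highest wild-type value, as on 3.7% of named spots. Their differences ran from 0.76 to 1.00 with a median of 0.89, so the brightest spot gave the smallest. None of the 11 passed when adjusted over all named spots (limma adjusted p from 0.0596 to 0.216, all 11 with an unadjusted limma p under 0.05). Spots of a gene share its transcript and the same 8 arrays and are not replicates. Of 385 genes with at least 10 spots, 4 were higher on every spot without overlap and 1 was lower, and Nos3 is among the 4.

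**Figure D2:**
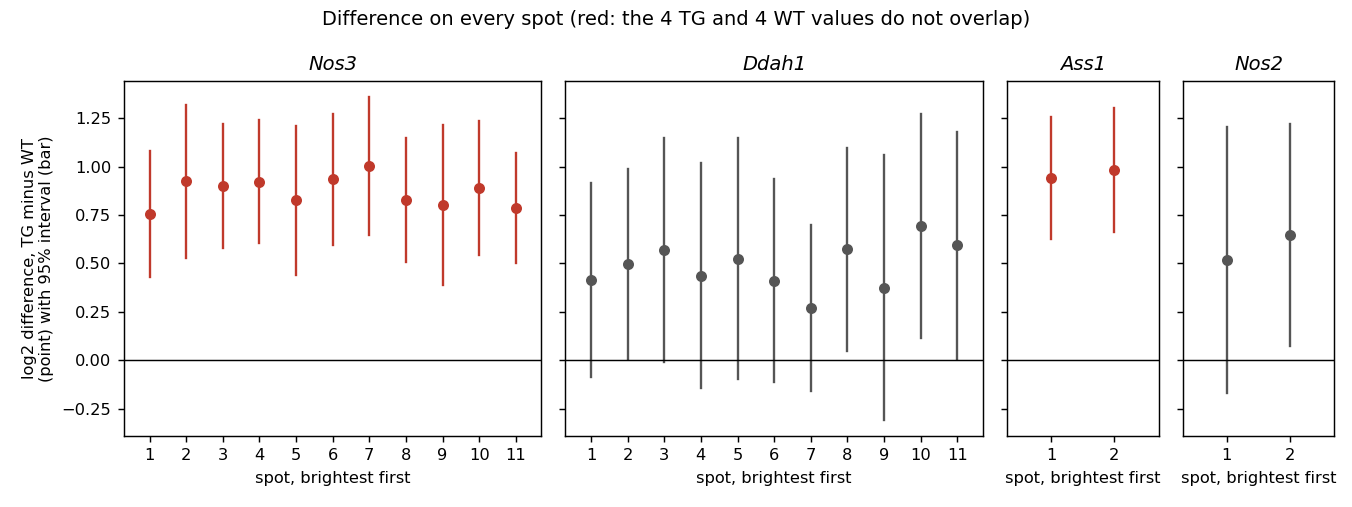
Log2 difference, transgenic minus wild type, on every spot of the 4 genes with more than 1 spot, ordered from the brightest spot, with 95% intervals from limma over all named spots. Red marks spots whose groups do not overlap: all 11 of Nos3 and both of Ass1, and none of Ddah1 or Nos2.

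Markers of endothelium, the main source of Nos3, were measured beside it. None of 15 endothelial genes passed the threshold in limma. At an unadjusted limma p under 0.05, 3 were higher and 0 lower, where 5.33% of all genes were higher. The same 3, named next, were higher without overlap between the groups, as were 3.99% of all genes. Of the 15 differences 11 were positive, and their median was 0.10. Sox17, a transcription factor of arterial endothelium, differed by 0.87 (SE 0.14, limma adjusted p = 0.0702), Emcn, which encodes the sialoprotein endomucin, by 1.18 (SE 0.33) and Tie1, a receptor kinase, by 0.57 (SE 0.18). Cdh5, the cadherin of endothelial junctions, differed by 0.08 (SE 0.13, named after its value was seen). The summed intensity of the 15 genes on the linear scale ran from 175042 to 230223 in transgenic and from 184658 to 199142 in wild-type mice, and all 15 lay above the median of all spots in every mouse. Set against the mean of these 15 genes within each array, Nos3 was higher by 0.52: its log2 ratio was -0.85, -0.75, -0.82 and -0.17 in transgenic mice 1 to 4, against -1.35, -1.14, -1.31 and -0.87 in wild-type mice 1 to 4. Transgenic mouse 4 stood apart, and transgenic mouse 1 lay close to wild-type mouse 4. The groups did not overlap (exact permutation p = 0.0286, two-sided, and 0.0715 adjusted over the 5 ratios), and without transgenic mouse 4 the difference was 0.36.

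Nos2, the inducible synthase of activated macrophages and epithelium, was read by 2 spots. The brighter stood at 7.16, 7.10, 7.87 and 8.45 in transgenic mice 1 to 4, against 7.15, 7.001, 7.37 and 6.98 in wild-type mice 1 to 4. On this spot transgenic mice 3 and 4 lay above every wild-type mouse while mice 1 and 2 lay within their range. The difference of 0.52 (SE 0.30, 95% interval -0.17 to 1.20) did not pass (limma adjusted p = 0.649), and the other spot differed by 0.65 (SE 0.25, limma p adjusted over all named spots = 0.505). Without transgenic mouse 4 the difference of the brighter spot was 0.25. Of 8 macrophage markers, 0 passed the threshold as higher and 1 as lower, where 0.216% of all genes passed in either direction. Of the 8 differences 6 were positive and their median was 0.27. Marco, a scavenger receptor, fell by 2.08 on the log2 scale (limma adjusted p = 0.0105). Itgax, an integrin of alveolar macrophages, differed by 0.62 (SE 0.21, limma adjusted p = 0.430), without overlap between the groups. Cd68, a lysosomal protein of macrophages, differed by 1.03 (SE 0.70, limma adjusted p = 0.699). In Cd68, wild-type mouse 4 read 3.37, below the median of all spots. Wild-type mice 1 to 3 read 6.45 to 6.71, against 6.46 to 7.22 in the transgenic mice. The summed linear intensity of the 8 macrophage markers ran from 52543 to 85611 in transgenic and from 36292 to 68050 in wild-type mice. Chil3, named after its values were seen, was the brightest of the 8 in every mouse and weighs most in this sum. In transgenic mouse 4 Chil3 stood at the highest value in the data, a ceiling at which a change could not be read. The sum is therefore not read as a level of the 8 markers together. The part of macrophages in the Nos2 values was not tested.

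Nos1, the neuronal synthase, was below the median of all spots on all 8 arrays, at 2.67 to 4.17 in transgenic and 2.75 to 3.75 in wild-type mice. At this signal no fold is given, and a change could not be read (limma adjusted p = 0.894).

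Slc7a1, the main carrier of arginine into cells, stood at 9.76, 9.92, 9.95 and 10.82 in transgenic mice 1 to 4, against 9.57, 9.74, 9.87 and 10.26 in wild-type mice 1 to 4. Mouse 4 was the highest in both groups. The difference was 0.25 (SE 0.26, 95% interval -0.34 to 0.85, limma adjusted p = 0.803), and without transgenic mouse 4 it was 0.02.

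Arg2, the mitochondrial arginase that competes for arginine, stood at 7.76, 6.77, 7.08 and 7.67 in transgenic mice 1 to 4, against 7.55, 7.20, 8.22 and 7.17 in wild-type mice 1 to 4. Transgenic mice 2 and 3 were the lowest of the 8 and wild-type mouse 3 the highest. The difference was -0.22 (SE 0.31, 95% interval -0.92 to 0.49, limma adjusted p = 0.866). Within arrays the ratio of Nos3 to Arg2 was higher in transgenic lung by 0.97, with transgenic mouse 1 within the wild-type range, and did not pass (exact permutation p = 0.0857, two-sided, and 0.143 adjusted over the 5 ratios).

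Ddah1 and Ddah2 hydrolyse asymmetric dimethylarginine, an endogenous inhibitor of the synthases. Ddah1 stood at 8.11, 8.58, 8.87 and 8.77 in transgenic mice 1 to 4, against 8.04, 8.61, 8.14 and 7.89 in wild-type mice 1 to 4. Wild-type mouse 2 lay among the transgenic values, and transgenic mouse 1 among the wild-type ones. The difference was 0.41 (SE 0.22, 95% interval -0.09 to 0.91, limma adjusted p = 0.618). All 11 Ddah1 spots had positive differences, from 0.27 to 0.69, but the groups overlapped on each. Like Nos3, Ddah1 was thus read by 11 spots that went the same way, though spots that repeat a probe could not be recognised. Unlike Nos3, none of the Ddah1 spots separated the mice. Of the 11, 4 had an unadjusted limma p under 0.05, and none passed over all named spots (lowest limma adjusted p = 0.477).

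Ddah2 stood at 12.56, 12.90, 12.82 and 13.05 in transgenic mice 1 to 4, against 12.95, 12.76, 12.84 and 12.95 in wild-type mice 1 to 4. The wild-type values lay inside the transgenic range. The difference was -0.04 (SE 0.13), with a 95% interval from -0.35 to 0.27 that was among the narrowest of the 10 genes (limma adjusted p = 0.947). Within arrays the ratio of Ddah2 to Ddah1 was lower in transgenic lung by a log2 difference of -0.46, which did not pass (exact permutation p = 0.114, two-sided, and 0.143 adjusted over the 5 ratios).

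Pde5a, which degrades cGMP in vascular smooth muscle and is the target of sildenafil, stood at 6.74, 7.08, 7.13 and 7.25 in transgenic mice 1 to 4, against 7.42, 7.01, 7.20 and 8.06 in wild-type mice 1 to 4. Wild-type mouse 4 was the highest by a wide margin. The difference was -0.37 (SE 0.24, 95% interval -0.92 to 0.17, limma adjusted p = 0.684), and without wild-type mouse 4 it was -0.16. Of 8 smooth muscle genes 0 passed in limma. At an unadjusted limma p under 0.05, reached by 9.15% of all genes in either direction, 0 were higher and 3 lower. All 8 differences of the list were negative and their median was -0.32. Among them Mylk, the myosin light chain kinase, differed by -0.53 (SE 0.14), Cnn1, calponin, by -0.48 (SE 0.17) and Tagln, transgelin, by -0.31 (SE 0.13). Their summed linear intensity was 28774 to 36008 in transgenic and 36269 to 46694 in wild-type mice, without overlap but with a narrow gap. The mean log2 level of the 8 genes did overlap, at 10.08 to 10.58 in transgenic and 10.56 to 10.81 in wild-type mice. Set against the mean of these genes within each array, Pde5a differed by -0.05 between groups (exact permutation p = 0.914, two-sided). Lmod1, which enters that mean, was above the median of all spots on only 1 array (difference -0.43, named after its value was seen).

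**Figure D3:**
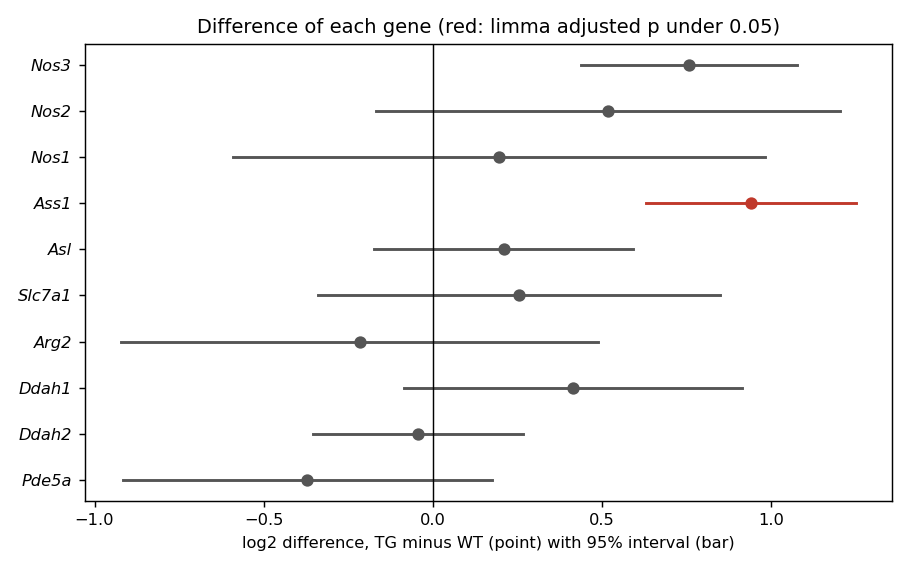
Log2 difference, transgenic minus wild type, of the 10 genes with 95% intervals from limma (4 mice per group). Ass1, in red, is the gene past the adjusted threshold, the interval of Nos3 also lies above 0, and the intervals of the other 8 include 0.

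**Figure D4:**
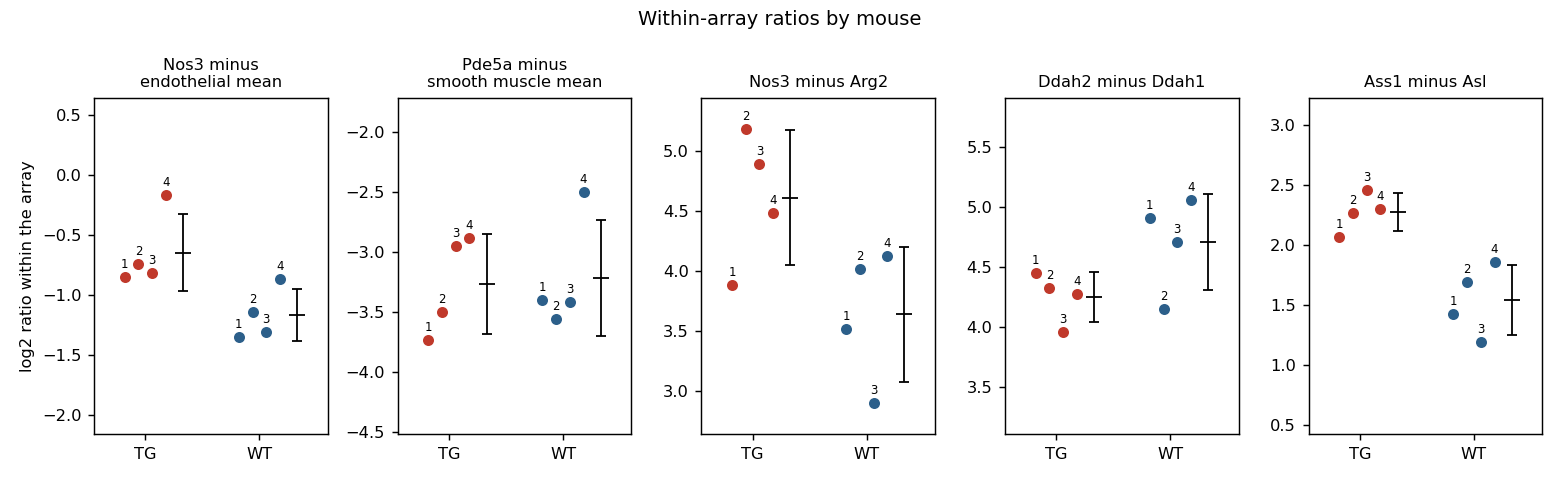
The 5 within-array log2 ratios by mouse, transgenic (TG, red) left of wild type (WT, blue), with mean ± SD (n = 4). The height of a ratio depends on the probes, so panels are compared between groups only. Nos3 to the endothelial mean and Ass1 to Asl separate the groups, and the other 3 ratios overlap.

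The other genes of the pathway were described by 5 lists, with 63 of 66 listed genes measured. None of the 63 passed the threshold in limma, where 0.216% of all genes did, and none did under any of the 18 alternatives run. At an unadjusted limma p under 0.05 there were 2 higher and 1 lower, 4.76% of the 63 where 9.15% of all genes had one, and their median difference was -0.01. With 0.216% of all genes passing, a count of 0 among 63 is not a result about these genes.

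Of 18 genes of arginine transport and metabolism 9 had positive and 9 negative differences (median 0.05). Slc7a7, a subunit of the exporter that moves cationic amino acids out of cells, stood at 10.95, 11.16, 11.31 and 10.81 in transgenic mice 1 to 4, against 10.50, 10.71, 10.57 and 10.76 in wild-type mice 1 to 4. The groups did not overlap, but the difference of 0.42 (SE 0.15) did not pass (limma adjusted p = 0.432). Slc7a6, another carrier of the same kind, differed by -0.23 (SE 0.11), Pycr1, an enzyme of proline synthesis, by 0.52 (SE 0.26) and Cps1, which feeds the urea cycle, lay below the median of all spots on every array. Pycr1 was above that median on only 3 arrays and below it in every wild-type mouse (4.17 to 4.64). Arg1, the arginase of alternatively activated macrophages, stood at 5.44, 6.06, 5.83 and 9.09 in transgenic mice 1 to 4, against 5.48, 5.73, 5.93 and 4.50 in wild-type mice 1 to 4, and is named after its values were seen. Transgenic mouse 4 alone was high, while the other 3 transgenic mice lay close to wild-type mice 1 to 3. Mouse 4 was also the highest of the transgenic mice in 8 of the 10 genes, Ass1 and Nos3 among them, and not in Arg2 and Ddah1.

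Arginine methyltransferases make the methylarginines that the Ddah enzymes remove, and Agxt2, an aminotransferase listed with them, also breaks these down. Of the 8 genes measured, none had an unadjusted limma p under 0.05 and the median difference was 0.00. Prmt3 differed by 0.25 (SE 0.16), Prmt6 by 0.21 (SE 0.21), Carm1 by -0.12 (SE 0.15) and Prmt2 by -0.08 (SE 0.12). All differences of this list lay between -0.12 and 0.25.

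Tetrahydrobiopterin is the cofactor that keeps nitric oxide synthases coupled. Of 6 genes of its synthesis and recycling none had an unadjusted limma p under 0.05 (median difference 0.05). Gch1, the rate-limiting enzyme, differed by 0.29 (SE 0.17), Pts by 0.22 (SE 0.20) and Qdpr, the recycling reductase, by 0.15 (SE 0.11). Gchfr, the feedback regulator of Gch1, stood at 9.44, 7.72, 7.32 and 7.83 in transgenic mice 1 to 4, against 9.69, 9.43, 8.34 and 8.64 in wild-type mice 1 to 4. Transgenic mice 2, 3 and 4 lay below every wild-type mouse and mouse 1 did not, and the difference of -0.95 (SE 0.49, 95% interval -2.08 to 0.18) did not pass (limma adjusted p = 0.614).

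Among 10 measured proteins that bind or steer the synthases, Nostrin and Hsp90aa1 differed in opposite directions without passing the test. Nostrin, which traffics Nos3 away from the membrane, stood at 9.71, 9.91, 10.05 and 9.58 in transgenic mice 1 to 4, against 9.52, 9.22, 9.53 and 8.94 in wild-type mice 1 to 4, a difference of 0.51 (SE 0.18, limma adjusted p = 0.440). Hsp90aa1, a chaperone that activates Nos3 and a heat shock gene, stood at 13.15, 13.18, 12.97 and 12.94 in transgenic mice 1 to 4, against 13.59, 13.57, 13.36 and 14.34 in wild-type mice 1 to 4, a difference of -0.65 (SE 0.21, limma adjusted p = 0.407). The groups did not overlap in either gene. Nosip differed by 0.21 (SE 0.12), the calmodulin gene Calm2 by 0.19 (SE 0.11) and Cav1, the caveolin that holds Nos3 inactive, by -0.07 (SE 0.19, named after its value was seen).

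Downstream, 21 genes of cGMP signalling had a median difference of -0.03, 8 positive and 13 negative, and none had an unadjusted limma p under 0.05. Pde2a, a phosphodiesterase that cGMP stimulates, differed by -0.34 (SE 0.18) and Npr3, the clearance receptor of natriuretic peptides, by 0.71 (SE 0.40), while Pde10a and Gucy2c lay close to the median of all spots. The subunits of the nitric oxide receptor, soluble guanylate cyclase, were named after their values were seen: Gucy1a1 differed by -0.22 (95% interval -0.62 to 0.19) and Gucy1b1 by -0.22 (-0.66 to 0.22). These intervals leave out a rise of the size seen in Nos3 for either subunit.

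**Figure D5:**
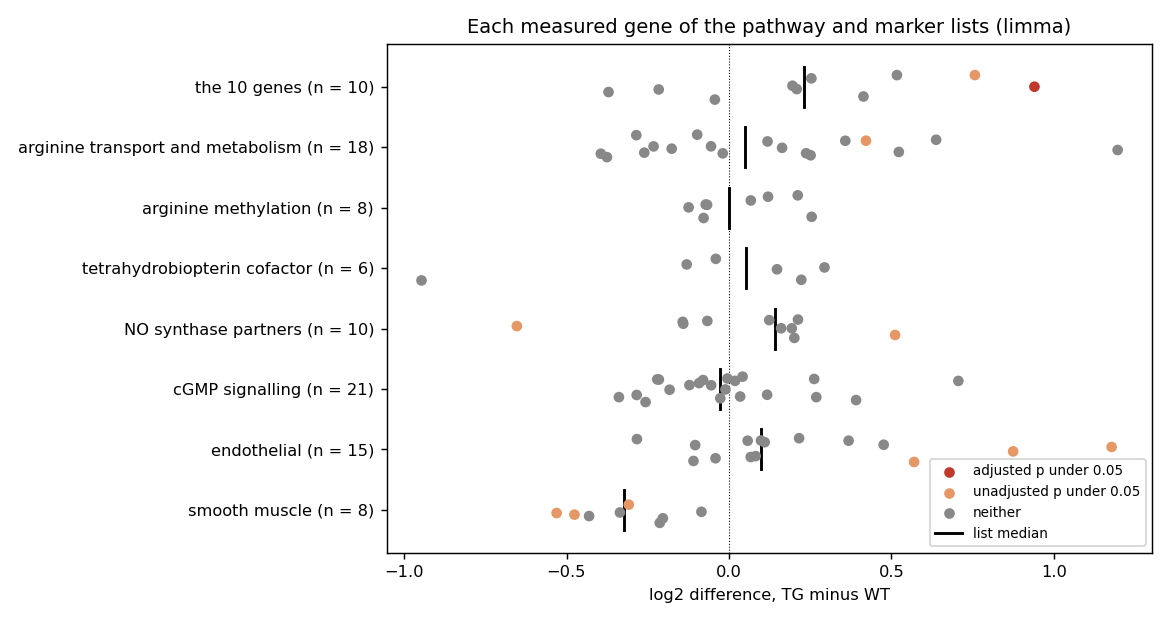
Log2 difference, transgenic minus wild type, of every measured gene in the 10 genes, the 5 other pathway lists and the endothelial and smooth muscle marker lists, with each list's median as a black bar. Ass1, at 0.94, is the point past the adjusted threshold (red), Nos3 is the orange point at 0.76 in the top row, and all 8 smooth muscle genes lie below 0.

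The genes whose pattern over the 8 mice was most like that of Nos3 were ranked by the root mean square difference between log2 levels centred on each gene's own mean, among 13250 genes above the median of all spots in every mouse. Unc5b, a netrin receptor of endothelium, was the closest at 0.08, followed by Sox17 (0.12), Fam43a (0.12), Cmtm3 (0.12) and Wfdc1 (0.13). Unc5b stood at 9.82, 10.31, 10.29 and 10.51 in transgenic mice 1 to 4, against 9.31, 9.56, 9.59 and 9.65 in wild-type mice 1 to 4. In all 5 the groups did not overlap, as the ranking favours for a gene that separates the groups, and none of the 5 passed the threshold in limma. Ass1 ranked 21st at 0.17. The next of the 10 genes was Ddah1, ranked 487th at 0.29, and Arg2 was the farthest of those ranked, at 0.69.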

How the data were processed

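Whole-lung RNA of 8 mice was labelled with Cy5 and hybridised to single-colour Agilent arrays, per the labels' protocols. The value table the authors deposited holds linear intensity for 62976 spots, and R 2.15.1 and limma 3.14.4 are named in the submitters' processing notes. How background was handled and arrays were normalised is not given in the sources used here. All arrays share nearly the same median (26.6), so differences are relative to each array's whole distribution. Of the spots, 31465 had a gene symbol, 0 had several and 31511 were unnamed here, and symbols were updated through RefSeq accessions (29036 spots matched, 2933 symbols replaced).

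Intensities were taken to log2 with no offset and fitted in limma 3.58.1 (R 4.3.3) with no term besides group, over all 20863 genes and again over all named spots. The limma procedure was tested on simulated data. Repeat spots of a probe could not be recognised. Single ratios were tested by exact permutation of the mice, counting absolute differences. The floor for dim signal was the median of all spots, 4.74. Plots were made in Python 3.11.15 with matplotlib 3.10.9. Precision is limited by the number of arrays.

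The 10 genes and the lists were chosen with earlier results of these data known. The naming rule took the 10 genes, up to 4 genes of each pathway list and 3 of each marker list by smallest p, the 5 genes most like Nos3, and Fosl2. Genes outside it are marked in the text as named after their values were seen. Other marker lists were summarised too. None of 8 neuron and muscle genes passed (median -0.26). Nppa differed by -1.63 (SE 0.54, groups without overlap), Tubb3 by 0.89 (SE 0.42) and Snap25 by -0.42 (SE 0.28). None of 5 red cell genes passed (median -0.16). Hbb-bs differed by -1.38 (SE 0.45), Alas2 by -1.28 (SE 0.48) and Epb42 by 0.98 (SE 0.42). Tubb3 and Epb42 were each above the median of all spots on only 2 arrays. Of 7 lymphocyte genes 0 passed as higher and 2 as lower (Gzma and Ncr1), with a median of 0.72. The other 5 differences were positive, 4 of them with an unadjusted limma p under 0.05, where 5.33% of all genes were higher. Cd5 differed by 1.40 (SE 0.24, limma adjusted p = 0.101), without overlap between the groups. None of 8 lung epithelial genes passed (median -0.07). Sftpc, Sftpd and Scgb1a1 (named after their values were seen) stood at 16.00 on every array, the highest value in the data. Sftpa1, named likewise, stood at 15.87 to 16.00. At this ceiling a change could not be read. Whether mice that share a number were paired is not known here. Deviations of same-numbered mice correlated at -0.01 to 0.15, and those of differently numbered mice at -0.16 to 0.11. The highest values, 0.15 and 0.14, were between the mice numbered 3 and the mice numbered 1. Pairing was left out of the main fit and entered only as the replicate block. The alternatives were offsets, centring, a filter on dim genes, other spot rules, variance models, array weights, a replicate block and mice left out.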

Additional observations from a re-analysis of the deposited data

Results flagged for a closer look

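Transgenic mouse 4 stood far from its group in the ratio of Nos3 to the endothelial mean, -0.17 against -0.85 to -0.75 in the other 3 transgenic mice, with a gap of 0.842 of the group's range. Wild-type mouse 4 stood far from its group in the ratio of Pde5a to the smooth muscle mean, -2.50 against -3.56 to -3.40 in the other 3 wild-type mice, with a gap of 0.845 of the range. Both gaps exceed Dixon's 95% critical value for 4 samples. They are 2 of 30 groups of values looked at, and chance gives about 1 in 20.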

How the results depend on the processing

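The differences of Ass1 and Nos3 were positive under all 18 alternatives (0.85 to 1.01 and 0.68 to 0.87), and only their calls moved. Ass1 was no longer called (limma adjusted p) with median centring (difference 0.91, adjusted p = 0.0508), without both mice numbered 4 (0.85, 0.128), with the dimmest spot, an alternative chosen after seeing the data (0.98, 0.0730), with the replicate block (0.94, 0.246), or with any 1 mouse left out (0.89 to 1.01, adjusted p from 0.0798 to 0.184). It stayed called in 6 of the 18. Nos3 became called with an offset of 32 (0.75, adjusted p = 0.0343) and with the trend and robust variance model (0.76, adjusted p = 0.0193), and not in the other 16. The number of the 10 genes called was therefore 2 in those last settings, 0 with any 1 mouse left out (range 0 to 0), with median centring, without both mice numbered 4, with the dimmest spot and with the replicate block, and 1 otherwise. The number with an unadjusted limma p under 0.05 was 4 with the dimmest spot and 2 to 3 with any 1 mouse left out. Over all genes the count of 45 became 80 and 88 with offsets of 16 and 32, 71 with dim genes left out, 118 with trend and robust, 100 with array weights, 26 with the dimmest spot, 17 without both mice numbered 4, 5 with the replicate block and 17 to 38 with any 1 mouse left out. The replicate block pairs mice by number, and whether those mice shared anything else is not known here. Differences near 0 changed sign with 1 mouse left out: Nos1 ran from -0.017 (without transgenic mouse 4; -0.0018 without wild-type mouse 2) to 0.48, Arg2 from -0.36 to 0.013 (without wild-type mouse 3) and Ddah2 from -0.11 to 0.047 (without transgenic mouse 1). The Asl difference was 0.027 without both mice numbered 4 and 0.069 with array weights. The Pde5a ratio ran from -0.18 to 0.19, changing sign without transgenic mouse 1 (0.11), transgenic mouse 2 (0.03) or wild-type mouse 4 (0.19), and it was 0.063 with both number 4 mice left out. The Nos3 ratio to the endothelial mean ran from 0.36 to 0.62 and that of Ass1 to Asl from 0.62 to 0.84 with any 1 mouse left out. Without wild-type mouse 2 the ratios of Nos3 to the endothelial mean, Ddah2 to Ddah1 and Ass1 to Asl had an exact permutation p of 0.0477 adjusted over the 5 ratios, and no ratio passed in the other 12 alternatives. Without both mice numbered 4 no exact test can pass, since the smallest p is then 0.10. Causes were not tested. Nos1 had no value with dim genes left out.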
